A study of Rattus norvegicus with 33 samples.

Results

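RNA of 7 prostates of adult male Sprague-Dawley rats that had received estradiol benzoate (EB), an ester of estradiol, as newborns was compared between 2 ages, postnatal day (PND) 100 and PND 145. The members were chosen by their labels alone: 3 arrays of EB rats at PND 100 and 4 arrays of EB rats at PND 145, of 33 arrays in all. EB was injected under the skin at 2.5 mg/kg on PND 1, 3 and 5, and from PND 90 these rats carried 3 empty silastic tubes in place of hormone implants. The same age step was measured in controls without EB, with 3 arrays at each age and empty tubes too. Each array held labelled RNA of 1 sample, and the labels give 3 to 4 litters per group without saying which litter gave which array. Unless stated otherwise, each p-value rests on 1 spread shared by all 10 groups of the 33 arrays. These groups also hold rats of PND 30 and rats with hormone implants. The p-values thus reflect variation among all those samples, not only among the 7 compared. The sample labels speak of the whole prostate, the series title of its dorsolateral lobes, and the difference is not settled here. All values below are log2 signals relative to the 75th percentile of the same array, so a difference of 1 is a 2-fold change, and levels of different genes cannot be set against each other.

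The rodent prostate is a set of ducts lined by secretory epithelium and wrapped in stroma of smooth muscle and fibroblasts, and androgens keep the epithelium working. Exposure to estrogen shortly after birth is a classic rodent model in which the adult gland has altered androgen response, lasting inflammation and changed stroma. Macrophages, lymphocytes and plasma cells enter the stroma in prostatitis, and fibroblasts lay down collagen and other matrix proteins there. In pieces of whole tissue, fewer cells of a type and less RNA per cell cannot be told apart.

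On all 7 arrays 61.7% to 68.1% of the spots were well above background, and no spot was saturated. Array 3 of PND 100 had the highest 75th percentile of signal of the 7, at 4454, against 1999 to 3376 on the others. Correlations between arrays over genes were 0.911 to 0.948 within EB PND 100 and 0.938 to 0.977 within EB PND 145, against 0.953 to 0.986 within the adult control groups. The median SD over genes was 0.51 in EB PND 100, 0.44 in EB PND 145, 0.26 in control PND 100 and 0.28 in control PND 145. Of 33 measured products of the dorsolateral lobes, 5 were not well above background on any EB PND 100 array and 3 on any EB PND 145 array. Levels of ventral lobe products varied between the samples: the mean over 11 ventral prostate products was 2.99, -5.99 and -3.58 on the 3 EB PND 100 arrays and 1.57, -1.66, 0.70 and 0.73 on the 4 EB PND 145 arrays. Array 1 of PND 100 was thus the richest of the 7 in ventral lobe products, and arrays 2 and 3 were the poorest. Whether lobe content or expression per cell differed between the samples was not tested, nor was the part of these products in the results below.

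From PND 100 to PND 145 in the EB prostates, 9 of 43 measured genes of fibroblasts and matrix fell, as did 7 of 23 of complement and 5 of 27 of macrophages and dendritic cells. Of B cell and plasma cell genes 2 of 25 fell, and of T and NK cell genes 2 of 31. No gene of these lists rose. The lists were chosen with earlier results of these data known, so their counts and medians describe these samples and are no test. By limma with Benjamini-Hochberg adjustment, 175 of 23528 genes passed an adjusted p of 0.05 (0.744% of those tested). Of these 132 fell (0.561%) and 43 rose (0.183%). The falls were large, with a median log2 ratio of -2.19 and 119 of 132 past 2-fold, while the rises had a median of 0.77 and 12 of 43 past 2-fold. The median over all genes tested was 0.06, and 10688 of the 23528 had a negative log2 ratio. In 122 of the 132 genes that fell and 41 of the 43 that rose the arrays of the 2 ages did not overlap, against 5.00% of all genes with PND 145 wholly lower and 4.89% with PND 145 wholly higher. These genes were called on the same arrays, so both counts follow from the calls and nothing is read from them. With normexp background correction 34 genes passed, 31 lower and 3 higher, and the median over all genes was then 0.15.

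The calls depended on array 3 of PND 100. Without it no gene passed, with 1401 genes at an unadjusted p under 0.05, and without array 1 of PND 100 the count was 1631 and held all 175. The count was 113 without array 2 of PND 100, and 22, 28 and 55 without arrays 1, 3 and 4 of PND 145. In a fit of these 7 arrays alone limma called no gene at an adjusted p of 0.05, with 2127 genes at an unadjusted p under 0.05, and asking for more than a 1.5-fold change also left no gene, with 811 at an unadjusted p. With slide as a block 116 genes passed, 80 lower and 36 higher, of which 93 were among the 175.

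**Figure D1:**
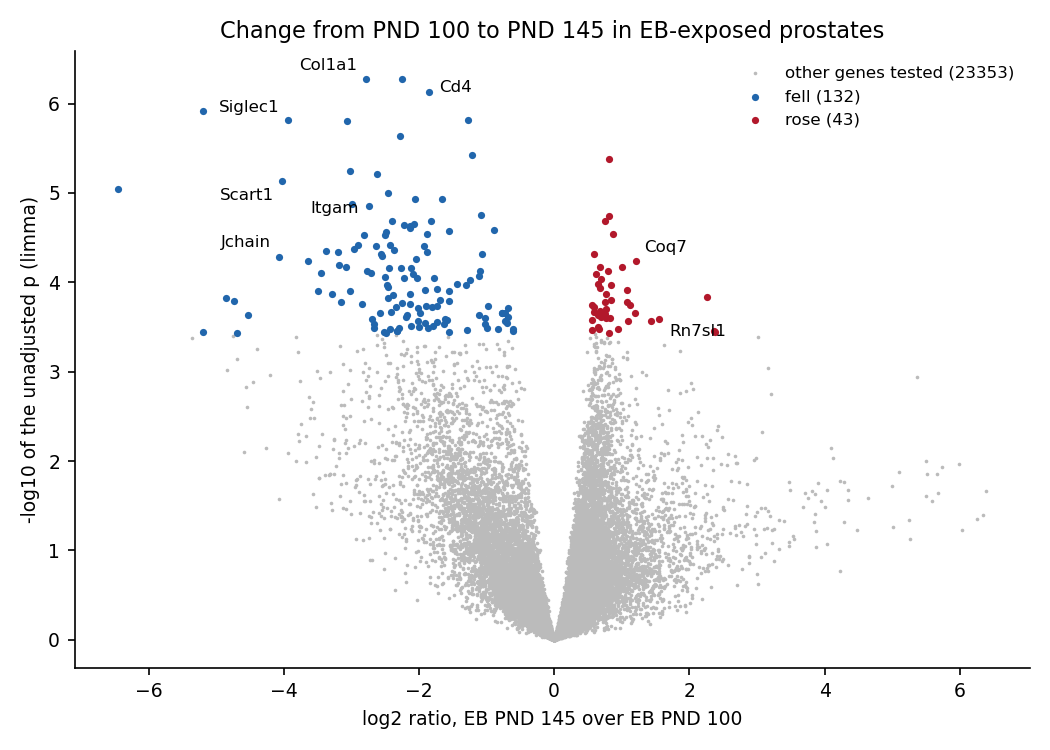
Log2 ratio of EB PND 145 over EB PND 100 (x axis) against -log10 of the unadjusted p from limma (y axis), 1 point per gene, with the 132 genes that fell in blue and the 43 that rose in red. The genes that fell spread to a fitted log2 ratio of -6.45, that of an antibody probe not well above background on 3 of 4 older arrays, while those that rose stop at 2.38.

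Genes of fibroblasts and extracellular matrix gave the largest group that fell by count, while the share was higher in complement (7 of 23). Of the 43 measured matrix genes 9 fell and none rose, 39 had a negative log2 ratio, and the median was -1.38 against 0.06 over all genes. In 21 of the 43 genes every PND 145 array was below every PND 100 array, against 5.00% of all genes. Col1a1, the alpha 1 chain of type I collagen, had levels of 3.64, 2.90 and 3.42 at PND 100 and of 0.08, 1.20, -0.05 and 0.91 at PND 145. The 2 ages were far apart on every array, and the fall was 6.90-fold (log2 ratio -2.79, SE 0.42, limma adjusted p = 0.0052). Col3a1, the chain of type III collagen, had levels of 3.54, 2.40 and 3.89 at PND 100 and of 0.21, 1.29, 0.70 and 1.18 at PND 145 (log2 ratio -2.43, SE 0.49, limma adjusted p = 0.024). Fbn1, which encodes the microfibril protein fibrillin 1, fell by 2.46 on the log2 scale, from levels of -1.28, -1.64 and -0.36 to levels of -4.27, -3.06, -3.64 and -3.22. Mmp2, a gelatinase that cuts matrix, had levels of 1.47, 1.60 and 2.45 at PND 100 and of -0.40, 0.49, -0.53 and 0.29 at PND 145 (log2 ratio -1.88, SE 0.37). For these 4 genes array 1 of PND 100 lay well above the PND 145 arrays too.

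The other 5 matrix genes that fell were Fn1 (fibronectin, log2 ratio -2.70), Fbln1 (fibulin 1, -2.55), Pdgfrb (a growth factor receptor of fibroblasts and pericytes, -2.49), Col15a1 (a basement membrane collagen, -2.29) and Loxl1 (a lysyl oxidase that links elastin, -2.01). Outside the lists, and picked after their values were seen, Eln (elastin) fell by 2.56 and Lama2 (a laminin chain) by 1.91. Cilp, a matrix protein first known from cartilage, had levels of -3.59, -2.51 and -1.40 at PND 100 and of -6.42, -4.78, -5.68 and -4.95 at PND 145 (log2 ratio -2.96, SE 0.61, limma adjusted p = 0.0243). In controls the matrix list had a median of -0.57, with 42 of 43 genes negative and none passing, and Col1a1 had a log2 ratio of -1.07 (limma adjusted p = 1). The difference between the Col1a1 steps was -1.72 (SE 0.62, limma unadjusted p = 0.0103), which did not pass adjustment. Without array 3 of PND 100 the list median was -0.84, and Col1a1 had a log2 ratio of -2.74 with an adjusted p of 0.0901 in limma. Genes of smooth muscle, the other main stromal tissue, had a median of 0.37 over 25 genes, and none passed.

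Of 27 genes of macrophages and dendritic cells 5 fell and none rose, 24 were negative, and the median was -1.50. In controls 25 of the 27 were negative too, with a median of -0.43 and none passing. Siglec1, a sialic acid receptor of tissue macrophages, had levels of -1.88, 0.08 and -1.55 at PND 100 and of -5.42, -3.96, -5.32 and -5.55 at PND 145. All 3 younger samples were above all 4 older ones, and the fall was 15.4-fold (log2 ratio -3.94, SE 0.64, limma adjusted p = 0.0052). Itgam, the alpha chain of the integrin CD11b of myeloid cells, had levels of -3.98, -2.0 and -1.82 against -5.96, -4.73, -5.44 and -5.24 (log2 ratio -2.74, SE 0.52, limma adjusted p = 0.0174). Cd68, a lysosomal protein of macrophages, had levels of -1.78, 0.41 and 0.47 against -2.99, -1.92, -2.30 and -2.85 (log2 ratio -2.22, SE 0.48, limma adjusted p = 0.0297). Arrays 2 and 3 of PND 100 were high in Itgam and Cd68, and array 1 was the nearest to the PND 145 arrays. Adgre1, which encodes the macrophage antigen F4/80, fell by 2.18 and C1qb, a chain of complement C1q made by macrophages, by 1.68. For both, array 1 of PND 100 lay within the range of PND 145, at -3.21 for Adgre1 and 1.71 for C1qb. Without array 3 of PND 100 the list median was -1.0, and Siglec1 had a log2 ratio of -4.16 (limma adjusted p = 0.0901).

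Because these macrophage genes fell in the same samples, the promoters of those that the RefSeq promoter table (build GRCr8) holds and that carry a PU.1 motif are shown, PU.1 being the transcription factor that drives many genes of myeloid cells. Each runs 5′ to 3′ on the gene's strand from 250 bases before to 50 bases after the annotated start, and capitals mark the letters GAGGAAG or their reverse complement. Itgam lies at chr1:192089342-192089641 on the plus strand, Cd68 at chr10:54882392-54882691 on the minus strand and Adgre1 at chr9:2329190-2329489 on the plus strand.
Itgam: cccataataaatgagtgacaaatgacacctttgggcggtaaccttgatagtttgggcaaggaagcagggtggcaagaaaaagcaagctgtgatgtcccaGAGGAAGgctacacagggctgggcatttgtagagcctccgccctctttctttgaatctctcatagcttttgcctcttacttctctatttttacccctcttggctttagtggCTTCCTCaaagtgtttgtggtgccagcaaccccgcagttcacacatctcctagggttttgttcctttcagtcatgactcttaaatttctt
Cd68: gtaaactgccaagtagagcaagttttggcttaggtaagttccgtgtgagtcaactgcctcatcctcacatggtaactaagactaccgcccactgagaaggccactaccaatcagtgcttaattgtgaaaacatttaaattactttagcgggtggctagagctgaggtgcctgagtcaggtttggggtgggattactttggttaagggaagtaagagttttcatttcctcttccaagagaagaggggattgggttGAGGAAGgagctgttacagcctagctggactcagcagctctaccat
Adgre1: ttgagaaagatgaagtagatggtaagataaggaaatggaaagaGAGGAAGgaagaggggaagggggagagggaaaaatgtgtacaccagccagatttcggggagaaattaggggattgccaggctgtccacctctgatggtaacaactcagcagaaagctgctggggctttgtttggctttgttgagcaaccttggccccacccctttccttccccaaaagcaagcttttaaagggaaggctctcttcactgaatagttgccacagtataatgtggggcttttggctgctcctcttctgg
The Itgam promoter held 2 matches and the other 2 held 1 each. C1qb, the other macrophage gene that fell with an entry in the table, held none, so 3 of 4 did. Of the 132 genes that fell, 79 had an entry in the table and 17 of them held GAGGAAG on either strand, while 12.4% of all 27457 promoters did. Of 28 matched genes that rose, 1 held it. CCAAT was present in 22 of the 79 and 15 of the 28 against 37.7% of all promoters, and TATAAA in 10 of the 79 and none of the 28 against 14.3%. The hedgehog factor motif GACCACCCA was in none of either set against 0.379% of all, also on either strand. A match describes letters in this window and not binding, and no difference between these shares was tested.

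Complement, the blood and tissue cascade that marks targets for removal, had 7 of 23 genes that fell and none that rose, with a median of -1.45 and 21 negative. C6, a part of the membrane attack complex, had levels of -1.44, -0.62 and -0.41 at PND 100 and of -4.44, -3.04, -3.56 and -4.58 at PND 145. The ages did not overlap, and the fall was 8.48-fold (log2 ratio -3.08, SE 0.65, limma adjusted p = 0.0276). Its second probe gave -1.89. C4b, which feeds the classical pathway, fell by 2.67, although near-identical C4 copies may share its probe, and C7 of the attack complex fell by 1.73. C1r, the protease of the C1 complex, fell by 2.08, C5ar1, the receptor of the fragment C5a on leukocytes, by 2.32, and Serping1, the C1 inhibitor, by 1.63. C1qb is also counted here. Components, a receptor and an inhibitor were thus among the genes that fell. In controls the list median was -0.55, with 21 of 23 negative and none passing. For all 7 genes array 1 was the lowest of the 3 PND 100 arrays. The list mean was -0.83, 0.45 and 0.74 on the PND 100 arrays and -2.07, -0.91, -1.14 and -1.27 on the PND 145 arrays. Array 1 of PND 100 thus lay close to the older samples. Without array 3 of PND 100 the median in EB rats was -1.14.

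Probes of antibody genes were among those that fell. One that the files describe as immunoglobulin heavy chain 6, with no symbol in the gene table, had a fitted log2 ratio of -6.45 (SE 1.18, limma adjusted p = 0.0153). It is picked out for that value, and its sequence stands for its name here, read from the files at rn4 6:138287978-138288146 on the minus strand, a span longer than its 60 bases.
A_44_P320999: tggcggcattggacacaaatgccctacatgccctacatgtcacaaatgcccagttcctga
Its levels were -1.32, -5.89 and 2.60 at PND 100 and -5.52, -9.54, -7.52 and -9.36 at PND 145. It was well above background on all 3 younger and on 1 of the 4 older arrays, so the size of its ratio rests on signals near background and has no rank among the genes. Array 2 of PND 100 fell within the range of PND 145. Segments of the antibody loci resemble each other, so this probe may bind several of them. Another such probe, described as the heavy constant mu gene of IgM, was well above background on all 7 arrays, with levels of 1.33, -0.58 and 5.42 at PND 100 and of -2.91, -4.86, -1.72 and -1.70 at PND 145 (log2 ratio -4.85, SE 1.10, limma adjusted p = 0.0376).

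Of 25 genes of B cells and plasma cells 2 fell, none rose, 21 were negative and the median was -1.56. In controls 18 of the 25 were negative, with a median of -0.12. Jchain, which joins the chains of IgM and IgA, had levels of -1.01, -1.85 and 4.29 at PND 100 and of -2.78, -4.27, -3.49 and -3.81 at PND 145 (log2 ratio -4.06, SE 0.84, limma adjusted p = 0.0251). The ages did not overlap, but array 3 of PND 100 lay far above its group, and without it the log2 ratio was -2.15 with an adjusted p of 0.327. Prdm1, the factor that drives plasma cell formation, fell by 1.56, from levels of -4.90, -4.24 and -3.35 to levels between -5.83 and -5.48. Irf4, another factor of plasma cells, had a log2 ratio of -2.52 with a limma adjusted p of 0.0568. The list mean was -4.92, -4.27 and -1.66 on the 3 PND 100 arrays and -4.82, -5.39, -4.53 and -5.37 on the PND 145 arrays, so only array 3 stood clear of the older samples on this measure by more than 1. Without array 3 the list median of log2 ratios was -0.49.

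Of 31 genes of T and NK cells 2 fell, none rose, 27 were negative and the median was -1.34. In controls 21 of the 31 were negative, with a median of -0.17. Cd4, the co-receptor of helper T cells that rat macrophages also carry, had levels of -0.75, 0.53 and 0.91 at PND 100 and of -1.88, -1.36, -1.50 and -1.76 at PND 145. The ages were apart on every array, with a 3.61-fold fall (log2 ratio -1.85, SE 0.29, limma adjusted p = 0.0052). In controls Cd4 changed by -0.03, and its control levels of -1.58, -1.54 and -1.74 at PND 100 lay within the range of EB PND 145. Zap70, a kinase of the T cell receptor, had levels of -3.22, -1.02 and 0.79 at PND 100 and of -3.68, -3.31, -3.19 and -3.71 at PND 145 (log2 ratio -2.32, SE 0.57, limma adjusted p = 0.0498), with array 1 of PND 100 inside the range of PND 145. Eomes and Prf1, a factor and the pore protein of killer lymphocytes, had log2 ratios of -2.54 and -2.18 and adjusted p-values of 0.054 and 0.0604 in limma. Without array 3 of PND 100 the list median was -0.50.

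Leukocyte genes outside these lists also fell. Scart1, a scavenger receptor found on gamma delta T cells, had levels of -6.42, -2.84 and -1.48 at PND 100 and of -8.12, -6.98, -7.97 and -7.33 at PND 145 (log2 ratio -4.02, SE 0.72). It was well above background on only 2 of the 4 PND 145 arrays, so the size of its ratio rests partly on signals near background. Dock2, which lets leukocytes migrate, had levels of -4.99, -3.46 and -1.97 against -6.19, -6.35, -6.81 and -6.60 (log2 ratio -3.01, SE 0.53). Apbb1ip, an adaptor of integrin activation, fell by 2.77, and Pla2g2d, a secreted phospholipase of lymphoid tissue, by 2.81. Siglec10, a sialic acid receptor of leukocytes, was well above background on all 3 PND 100 arrays and on none at PND 145, and was at least 6.21-fold lower (limma adjusted p = 0.029). RGD1562625, described as similar to a killer activatory receptor, was at least 4.14-fold lower (limma adjusted p = 0.026), though relatives in its family may share the probe. Arhgap30 was at least 3.54-fold lower and did not pass (limma adjusted p = 0.15). For these bounds the older group was taken at the dimmest signal still well above background on each array, or at its own signal where that was higher. In all 22 genes had such a bound in this direction, and 5 of them passed, against 0.561% of all genes tested that fell. Genes with a bound were taken for being above background at PND 100 only. Their direction and the count that passed thus follow largely from that rule, and nothing is read from them.

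Lists of acute inflammation and antigen presentation had negative medians with no gene passing. Genes of neutrophils and acute inflammation had a median of -2.08 over 31 genes, with 12 at an unadjusted p under 0.05, all lower, against 8.22% of all genes. Of the 31, 8 were not well above background on any EB PND 145 array, and with normexp the median was -0.72. S100a8, a calcium-binding protein of neutrophils, had levels of -8.63, -1.20 and -1.31 at PND 100 and of -8.84, -7.65, -8.80 and -5.30 at PND 145. Its level on array 1 of PND 100 was within the range of the older samples. Levels such as -8.84 and -8.80 lie near background on these arrays, so the size of its change is uncertain. Genes of class II antigen presentation, all 13 negative, had a median of -1.22, and Cd74, the invariant chain, had levels of 1.11, 3.77 and 3.96 against 1.08, 1.81, 1.35 and 1.23. In controls 11 of the 13 class II genes were negative, with a median of -0.39. Lymphoid chemokines and cytokines had a median of -0.84 over 26 genes, and Cxcl13, which draws B cells into follicles, had levels of -1.67, 1.47 and 0.88 at PND 100 and of -3.29, -1.72, -1.97 and -3.14 at PND 145 (limma adjusted p = 0.0795). Interferon response genes had a median of -0.80 over 41 genes and class I presentation genes one of -0.41 over 13. Leaving out array 3 of PND 100 gave medians of -0.99 for neutrophils, -0.74 for class II and -0.21 for lymphoid chemokines and cytokines. Without array 2 of PND 100 they were -1.30 for neutrophils, -0.74 for class II and -0.31 for interferon response, and that of class I turned positive at 0.06. Across the 33 arrays fitted, the smallest adjusted p-values of these lists lay above 0.05.

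**Figure D2:**
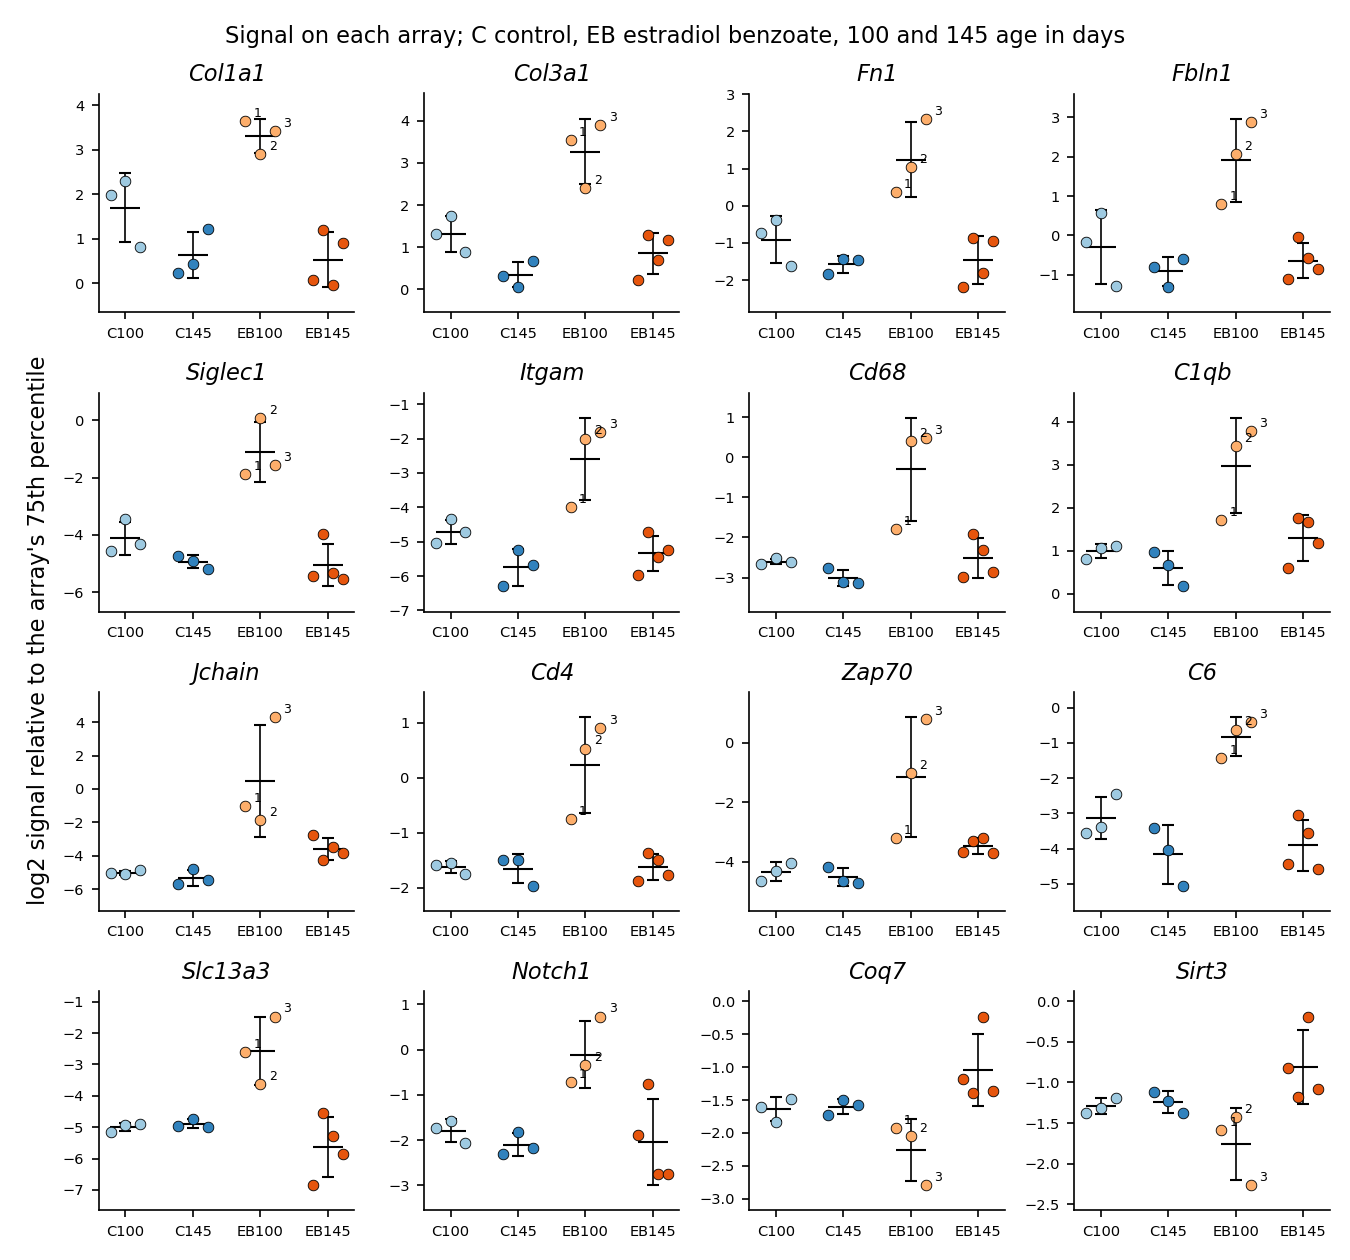
Log2 signal relative to the 75th percentile of the array (y axes) for 16 called genes in the 4 adult groups (x axes, C control and EB, ages in days), with 1 point per array, the mean as a line and the SD as a bar, and the 3 EB PND 100 arrays numbered. Col1a1 and Siglec1 are high on all 3 EB PND 100 arrays, while Zap70 and C1qb are near the other groups on array 1.

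Of 28 genes of endothelium and pericytes 1 fell, with a median of -0.94 and 24 negative, against a median of -0.07 and 19 negative in controls. Plvap, the protein of the diaphragms in leaky capillaries, had levels of 1.48, 1.96 and 2.93 at PND 100 and of -0.25, 1.00, 0.12 and 0.13 at PND 145 (log2 ratio -1.87, SE 0.45, limma adjusted p = 0.0487). In controls it changed by 0.15. Of 41 genes of prostate development signals 3 fell and none rose, with a median of -0.36. Notch1, a receptor of cell fate choice, had levels of -0.72, -0.34 and 0.73 against -1.89, -0.75, -2.75 and -2.76 (log2 ratio -1.93, SE 0.39, limma adjusted p = 0.024), and array 2 of PND 145 lay just below the lowest PND 100 array. Gli2 and Gli1, the transcription factors of hedgehog signalling in prostate stroma, fell by 2.02 and 1.55. The 2 probes of Gli2 gave -2.02 and -0.20. Plagl1, an imprinted zinc finger gene, had levels of -4.80, -4.33 and -2.37 against -7.80, -5.84, -7.96 and -6.43 (log2 ratio -3.18, SE 0.67), and its second probe gave -1.03. Slc13a3, a carrier of dicarboxylates, had levels of -2.61, -3.62 and -1.47 against -6.84, -4.56, -5.29 and -5.84 (log2 ratio -3.07, SE 0.50, limma adjusted p = 0.0052). In controls Slc13a3 lay between -5.15 and -4.73 at both ages.

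The genes that rose did so by less. Rn7sl1, the RNA of the signal recognition particle that brings nascent secretory proteins to the endoplasmic reticulum, had levels of 0.90, 1.17 and 0.32 at PND 100 and of 2.68, 2.34, 2.33 and 2.03 at PND 145. The rise was 2.93-fold (log2 ratio 1.55, SE 0.37, limma adjusted p = 0.0442), and the many 7SL copies in the genome make it uncertain. Coq7, an enzyme of coenzyme Q synthesis in mitochondria, had levels of -1.92, -2.05 and -2.79 at PND 100 and of -1.18, -1.39, -0.23 and -1.37 at PND 145 (log2 ratio 1.21, SE 0.25, limma adjusted p = 0.026). Sirt3, the main mitochondrial deacetylase, had levels of -1.59, -1.43 and -2.26 against -0.82, -1.18, -0.19 and -1.08 (log2 ratio 0.94, SE 0.23, limma adjusted p = 0.0487). Mrpl50, a protein of the mitochondrial ribosome, had levels of 0.67, 0.00 and -0.42 against 1.08, 0.90, 1.81 and 0.83 (log2 ratio 1.07). Array 3 of PND 145 was the highest of its group in Coq7, Sirt3 and Mrpl50, and all 4 older samples were above the 3 younger ones in each.

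Slc35a3, which carries a nucleotide sugar into the Golgi, rose by 1.13, from levels of -0.17, -0.17 and -1.59 to levels of 0.53, 0.12, 0.86 and 0.43. Gmppb, which makes GDP-mannose for glycosylation, rose by 1.08, and Atp6v1f, a subunit of the proton pump of acidic vesicles, by 1.10. Ist1, which works with ESCRT complexes in membrane scission, rose by 0.87, Rdh14, a retinol dehydrogenase, by 0.84, Gmpr2, a GMP reductase, by 0.83, Pdrg1 by 1.01 and Iqcc by 1.19. Further genes that passed, picked after their values were seen, were the mitochondrial proteins Atp5me (0.62), Timm21 (0.68), Chchd3 (0.58) and Hspd1 (0.56), and Sec11a (0.69) and Emc2 (0.59) of the endoplasmic reticulum. None of the 43 genes that rose was a member of a list.

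Genes of oxidative phosphorylation, the respiratory chain and ATP synthase of mitochondria, had a median of 0.50 over 35 genes, with 34 positive. None passed, and 23 had an unadjusted p under 0.05, all higher, against 7.35% of all genes. The smallest p belonged to Uqcrc1, a core subunit of complex III, with levels of 1.11, 1.18 and 0.43 at PND 100 and of 1.71, 1.47, 2.16 and 1.33 at PND 145 (log2 ratio 0.76, SE 0.21, limma adjusted p = 0.0767). The list mean was 2.12, 1.81 and 1.30 on the PND 100 arrays and 2.29, 2.14, 2.41 and 2.12 on the PND 145 arrays, so array 1 of PND 100 was level with the lowest older samples and array 3 was the lowest. Control means were 2.24 and 2.29 at the 2 ages. Without array 3 of PND 100 the list median was 0.27.

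Epithelial and hormone lists had no gene that passed. Luminal epithelium had a median of 0.51 over 30 genes with 25 positive. Krt8, a keratin of luminal cells, had levels of 0.98, 0.81 and -0.33 at PND 100 and of 2.07, 1.90, 1.61 and 1.22 at PND 145 (log2 ratio 1.21, SE 0.69, limma adjusted p = 0.406), and Epcam, an adhesion protein of epithelia, one of 0.69 (SE 0.41). The unfolded protein response list, which holds chaperones of secretory cells, had a median of 0.38 over 31 genes, and cholesterol and fatty acid synthesis one of 0.72 over 34. Pmvk, a kinase of the mevalonate pathway, had levels of 0.57, 0.41 and -0.47 against 1.58, 0.59, 1.80 and 1.03 (limma adjusted p = 0.0671). The medians of luminal epithelium and the unfolded protein response were 0.23 and 0.05 without array 3 of PND 100, and without array 2 that of cholesterol and fatty acid synthesis was 0.36. Sod1, the cytosolic superoxide dismutase, had a log2 ratio of 0.69 (SE 0.17, limma adjusted p = 0.0557) in an antioxidant list with a median of 0.20. Androgen responsive genes had a median of 0.09 over 36 genes and estrogen responsive genes one of -0.29 over 36. C3, complement factor and estrogen target, had levels of -1.48, 3.11 and 2.92 at PND 100 and of -2.01, -0.80, -1.88 and -1.57 at PND 145 (limma adjusted p = 0.113).

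The 4 hormone receptors described here did not pass either. Esr1, the estrogen receptor alpha, had a log2 ratio of -0.42 (SE 0.44) and Esr2, the beta form, one of 0.87 (SE 0.64). Pgr, the progesterone receptor, had one of -1.04 (SE 0.65) and Prlr, the prolactin receptor, one of 1.55 (SE 1.12). The levels of Prlr were 0.00, -2.11 and -4.27 at PND 100 and 0.59, -1.90, -0.09 and -0.91 at PND 145, a spread within each age as wide as the difference.

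Nerve and ganglion genes had a median of 1.55 over 29 genes, with none passing and 8 wholly higher at PND 145, against 4.89% of all genes. Vip, a neuropeptide of pelvic ganglia, had levels of -9.27, -8.11 and -4.10 at PND 100 and of -2.76, -2.45, -0.48 and -1.46 at PND 145 (log2 ratio 5.37, SE 1.48, limma adjusted p = 0.0804). Its lowest levels at PND 100 lay near background, so the size of its ratio is uncertain. Cartpt, a neuropeptide gene, and Lix1, named for its expression in limb and central nervous system, were well above background on all 4 PND 145 arrays and on none at PND 100, and were at least 4.83-fold and 8.07-fold higher, with limma adjusted p-values of 0.213 and 0.15. Ric3, a chaperone of acetylcholine receptors, was at least 2.04-fold higher (limma adjusted p = 0.149). The list mean on single arrays ran from -6.51 to -4.93 at PND 100 and from -5.0 to -2.24 at PND 145, and was highest on array 3 of PND 145. Without that array the list median of log2 ratios was 0.85, and in controls it was -0.77. The 11 ventral products had a median of 2.18 without a gene passing, and the median was 5.85, 0.66 and 1.22 without arrays 1, 2 and 3 of PND 100. In controls the same products had a median of 2.47, with none negative and none passing, so a rise of this size was not particular to EB rats.

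**Figure D3:**
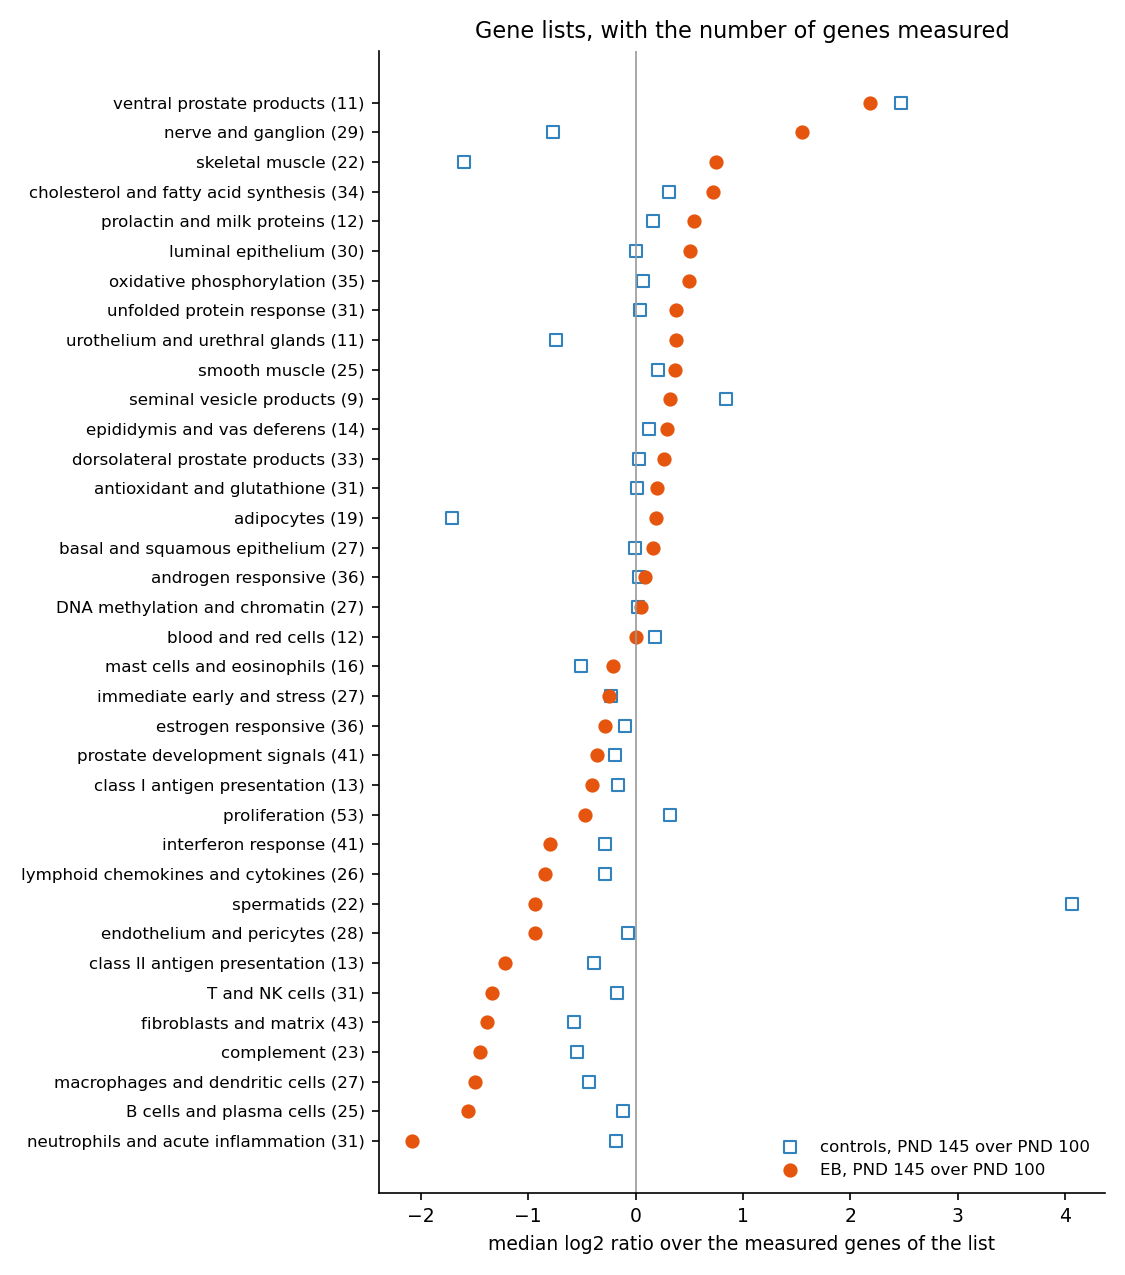
Median log2 ratio of PND 145 over PND 100 (x axis) for each gene list, with the number of genes measured, in EB rats (filled circles) and in controls (open squares). The neutrophil list has the lowest median in EB rats at -2.08, followed by the B cell, macrophage, complement, matrix and T cell lists between -1.56 and -1.34. This order depends on how background is handled. With normexp the neutrophil median was -0.72, while the medians of those other lists ran from -1.45 (complement) to -0.79 (T cells).

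For 84 of the 132 genes that fell the EB PND 145 mean lay inside the range of the 6 adult control arrays, while the EB PND 100 mean did so for 4. The EB PND 100 mean was above the control PND 100 mean for 130 of the 132, and the EB PND 145 mean was above the control PND 145 mean for 73. For the 43 genes that rose, the EB PND 100 mean was above the control PND 100 mean for none and the EB PND 145 mean above the control PND 145 mean for 27. The EB PND 145 mean lay inside the control range for 19 of the 43. The EB samples of PND 100 are the same arrays in each count, so these counts are not independent of the calls.

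In controls no gene passed from PND 100 to PND 145 by limma, with 581 genes (2.47%) at an unadjusted p under 0.05. Of the 132 genes, 113 had a negative log2 ratio in controls too, with a median of -0.39 and 4 at an unadjusted p under 0.05. Of the 43 genes, 37 had a positive one, with a median of 0.09. A test of the difference between the age steps, the interaction of age and EB, also called no gene in limma, with 1010 genes (4.29%) at an unadjusted p under 0.05 and a smallest adjusted p of 0.506. The smallest p-values among named genes were those of Slc13a3 (difference of log2 ratios -3.17, SE 0.73) and Cd4 (-1.82, SE 0.42), both with an adjusted p of 0.506. Below them came Nxph3, a neurexophilin (-1.44), Znrd1as1, a transcript antisense to its neighbour (-1.23), and Pitpnm1, a phosphatidylinositol transfer protein (-1.15). In the other direction stood Sdcbp, the exosome adaptor syntenin (0.94), Ubac1 (1.37), Chchd1 of the mitochondrial ribosome (0.70), Snrnp27 of the spliceosome (0.75) and Eef1akmt2 (0.75). For Snrnp27, Eef1akmt2 and Znrd1as1 a second probe had the opposite sign in the EB step. The age step of EB rats is therefore not shown to differ from that of controls for any single gene. Genes of spermatids, cells of the testis, differed between the control samples: over 22 genes the mean was -7.32 at PND 100 and -3.33 at PND 145. On the single control PND 145 arrays it was -4.81, 0.76 and -5.94, so array 2 stood far above the others. The median log2 ratio was 4.06 in controls and -0.94 in EB rats, none passing. Their part in the interaction was not tested.

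**Figure D4:**
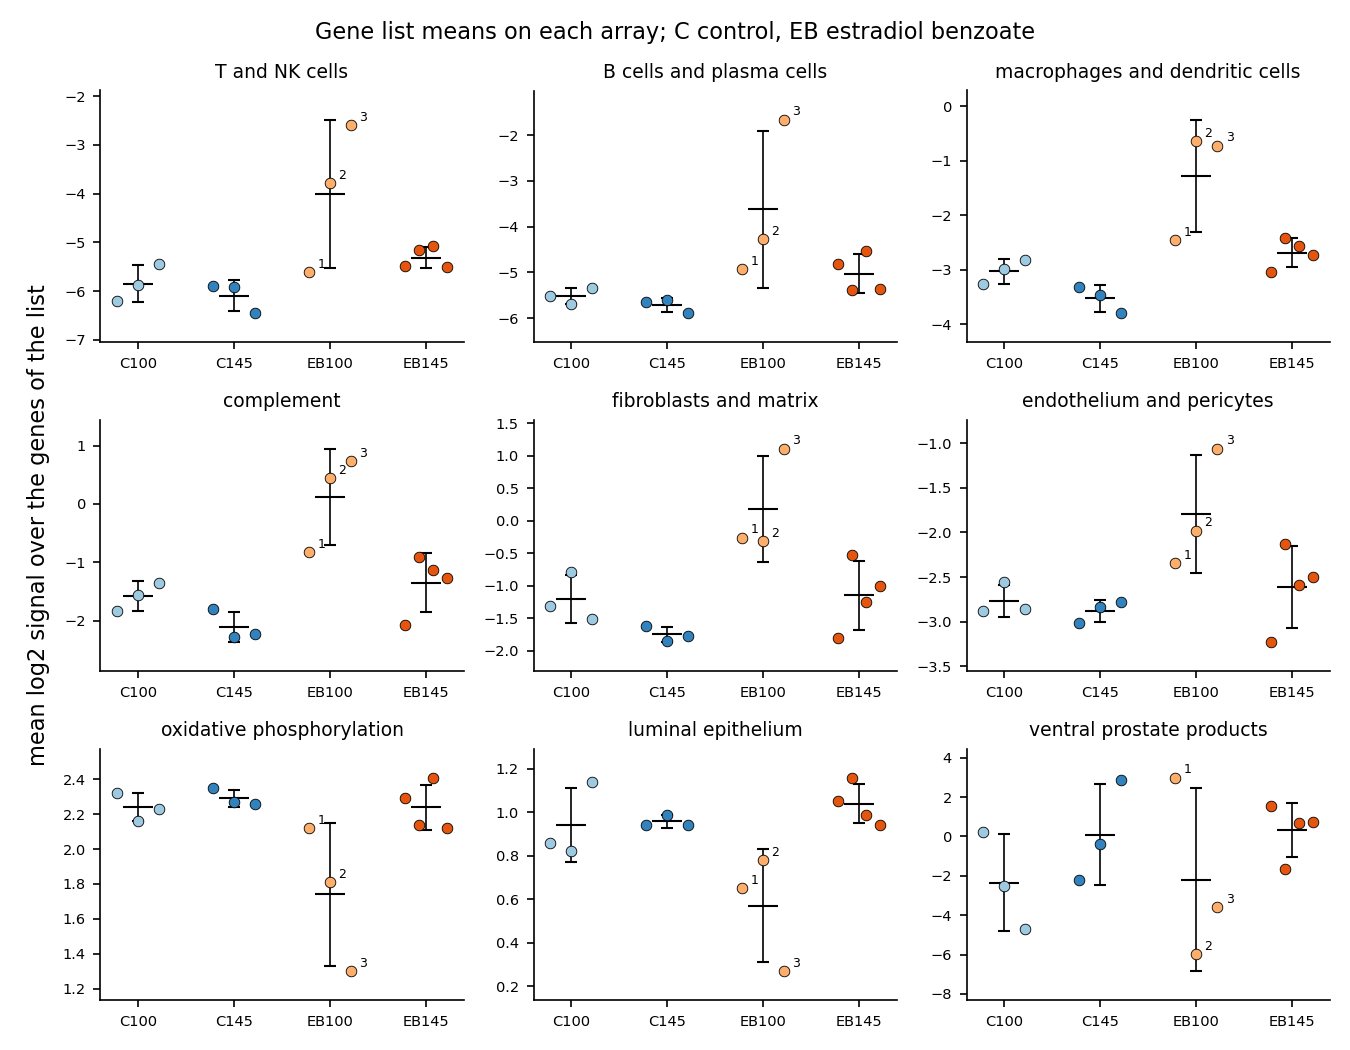
Mean log2 signal over the genes of 9 lists (y axes) on each array of the 4 adult groups (x axes, C control and EB, ages in days), with the group mean as a line and the SD as a bar, and the EB PND 100 arrays numbered. Array 3 of EB PND 100 has the highest T and NK cell mean at -2.60 and array 1, at -5.61, lies with the older EB arrays.

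The 3 EB prostates of PND 100 differed among themselves. For 117 of the 132 genes that fell, array 3 was the highest of the 3, and for 92 array 1 was the lowest. The median distance from the PND 145 mean was 1.32 for array 1, 1.91 for array 2 and 2.99 for array 3. For the 43 genes that rose it was -0.54, -0.70 and -1.01. T and NK cell means were -5.61, -3.78 and -2.60 on arrays 1, 2 and 3, and macrophage means -2.46, -0.64 and -0.72, against -5.51 to -5.08 and -3.04 to -2.42 at PND 145. Array 1 was thus not above the older samples in either list. Matrix means were -0.26, -0.31 and 1.11 against -1.80 to -0.53 at PND 145, with all 3 younger samples higher.

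The arrays lay on 5 slides, each with its own scan time, and slides 2 and 4 held both ages. On slide 2, array 1 of PND 145 set against array 3 of PND 100 gave a median of -3.50 over the 132 genes, with all 132 lower. On slide 4, array 3 of PND 145 set against array 1 of PND 100 gave a median of -1.49, with 129 lower and 93 past 2-fold. The 9 matrix genes had medians of -3.91 and -2.01 on slides 2 and 4, and Col1a1 gave -3.34 and -3.69. The 5 macrophage genes had medians of -3.54 and -0.52, with Siglec1 apart at -3.86 and -3.43, and the 2 T cell genes of -3.63 and -0.36. Over all measured T and NK cell genes the medians were -3.20 and 0.55, so on slide 4 that list was not lower at PND 145. The 43 genes that rose had medians of 0.99 and 0.89, with 42 and 43 higher. Each value rests on 1 pair of arrays, and the difference between slides was not tested. The 132 and 43 genes were called on these same arrays. Their directions and counts within each slide thus follow largely from the calls, and nothing is read from them.

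**Figure D5:**
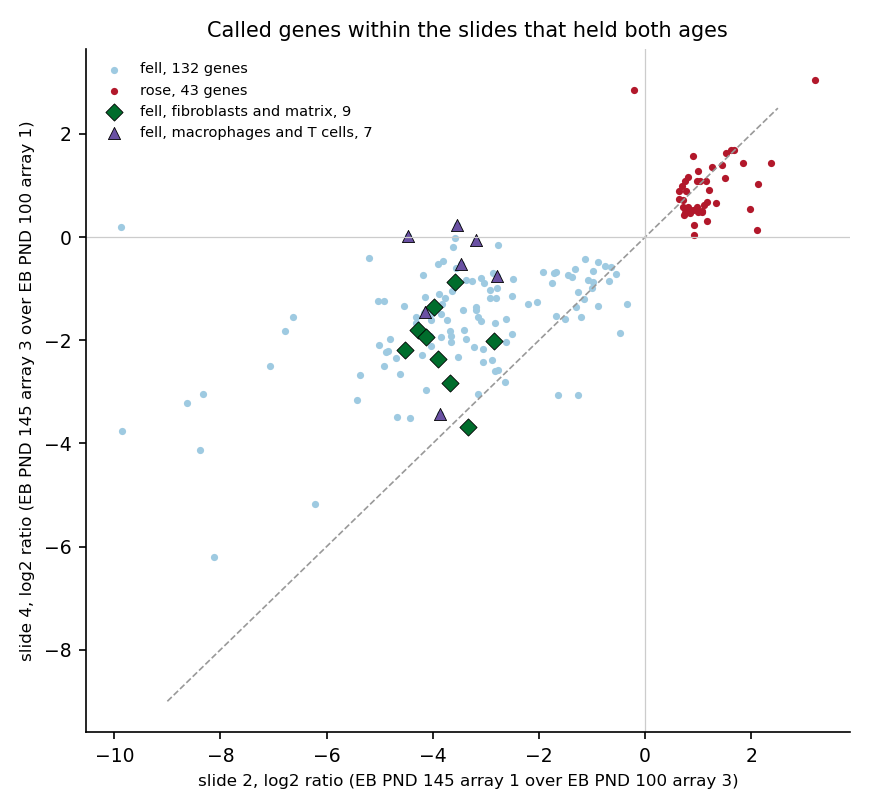
Log2 ratio of PND 145 over PND 100 in EB rats within slide 2 (x axis) and within slide 4 (y axis) for the 175 called genes, with diamonds for 9 matrix genes, triangles for 7 macrophage and T cell genes, and a dashed line of equal values. Most genes that fell lie above the line, with smaller falls on slide 4, and 129 of 132 are below 0 there. The genes were called on these same arrays, so their directions follow largely from the calls.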

How the data were processed

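RNA of 33 rat prostates was labelled with Cy3 and hybridised to single-colour Agilent arrays, 1 per sample. Per the file headers, the deposited intensities come from Feature Extraction 12.0.0.7 (protocol GE1_1200_Jun14, design 074036, build rn4), with the background already subtracted and no scaling across arrays. A value table deposited by the authors gives linear intensities for these arrays, not centred, each scaled to nearly the same 75th percentile (log correlation with the scanner values at least 0.999982, column medians 30.8 to 49.9), and its making is not given in the sources used.

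From these, each processed signal was divided by the 75th percentile of its array (control spots excluded) and put on a log2 scale, without the 413 to 969 outlier spots per array. Of 45598 probes 24452 were named by accession, 6448 by symbol and 320 by synonym in a RefSeq table, 313 kept the files' name and 14065 had none. Probes well above background on at least 3 arrays were kept, with the brightest probe for each gene (23528 genes, 16748 with a symbol). limma 3.58.1 (R 4.3.3; trended, robust variance) fitted a mean for each of the 10 groups at once, so the groups share 1 estimate of the spread. p-values were adjusted by Benjamini-Hochberg over all genes, with calls at 0.05. The fit was tested on simulated data.

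Named genes had a symbol, 2 or more arrays well above background in each group and groups that did not overlap. They were the 12 highest and 12 lowest called log2 ratios, the 3 largest bounds each way, up to 4 members of each described list with the smallest p, 5 interaction genes each way and a set of hormone receptors. A gene that this rule takes is not reported here. The list members need not meet the conditions. Of 36 gene lists those that bear on the comparison are described and all are plotted. The members and the lists were chosen with earlier results of these data known. Alternatives were normexp (offset 50), quantile scaling, the deposited table, no filter or 17 arrays, the mean of all probes, slide or replicate number as a block, only the groups compared, array weights, a minimum of 1.5-fold, and each array left out.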

Additional observations from a re-analysis of the deposited data

Results flagged for a closer look

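Among 207 named genes and list means, 8 had a single EB PND 145 array far from the other 3, with a gap whose share of the range exceeded Dixon's critical value for groups of 4. By chance about 1 in 20 such groups would, so this number is not above that share. Array 2 stood apart in Siglec1 (highest, share of the range 0.852), Pmepa1, an androgen target (highest, 0.832), Chchd1 (lowest, 0.945) and Scgb1d2, a secretoglobin of the ventral lobe (lowest, 0.899). Array 3 stood apart in Snrnp27 (highest, 0.916), Ndufb8 of respiratory complex I (highest, 0.859) and Esr1 (lowest, 0.863). Array 4 stood apart in the chemokine Ccl3 (highest, 0.901), at -3.49 against -5.33 to -5.15. For Siglec1, array 2 had a level of -3.96 and the others -5.55 to -5.32, all below the 3 arrays of PND 100. For Chchd1 the 4 levels were 2.32, 2.20, 2.32 and 2.32, so the gap is small in size.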

How the results depend on the processing

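Of 18 alternatives, 4 kept the count of 175 called genes within 1.5 times, namely quantile scaling (187), a filter of 17 arrays (158), the mean of all probes (122) and leaving out array 2 of PND 145 (214). Counts moved to 34 with normexp, 116 with the authors' deposited table, 83 with no filter on dim probes (35814 genes tested), 116 with slide as a block, 2415 with array weights, 0 in the fit of only the groups compared and 0 with a minimum fold of 1.5. With each array left out the count ran from 0 (array 3 of PND 100) to 1631 (array 1 of PND 100). The cause was not tested. With the replicate number as a block 47 genes passed. Deviations of same-numbered arrays correlated at 0.33, 0.22 and 0.00 and 2 of 3 PND 100 arrays correlated best with their own number. These values do not settle whether the numbers mark pairs. The labels name no pairing, so the samples were not treated as paired.

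The control age step called 0 genes except with array weights (3) and with arrays left out, where the count ran from 0 to 76, the latter without array 3 of control PND 145. The interaction called 0 except with array weights (78) and with arrays left out, from 0 to 4. Of 44 called named genes none changed direction, and 0 stayed called without array 3 of PND 100, 33 with slide as a block and 13 with normexp. The median of all genes was 0.15 with normexp and 0.19 with no filter, against 0.06. Medians for T and NK cells, B and plasma cells, and neutrophils were -0.79, -0.85 and -0.72 with normexp, -0.50, -0.49 and -0.99 without array 3 of PND 100, and -2.35, -2.42 and -3.24 without array 1. Depth in arrays is signal over background: folds of genes not well above it are bounds only.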

Other observations

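Proliferation genes had a median of -0.47 over 53 genes from PND 100 to PND 145 in EB rats and of 0.32 in controls, with no gene passing in either. The EB median ran from -0.83 without array 2 of PND 100 to 0.42 with array weights, where its sign turned, and was -0.13 without array 1. Aurkb, a mitotic kinase, had levels of -6.46, -7.86 and -5.72 at PND 100 and of -8.71, -9.39, -9.09 and -6.95 at PND 145. The lowest of these lie near background, so the size of its change is uncertain. Mcm3, a subunit of the replicative helicase, had a log2 ratio of -1.25 (SE 0.43, limma adjusted p = 0.157). Basal and squamous epithelium had a median of 0.16 over 27 genes, 15 positive and 12 negative, with none passing. In limma 1 was higher and 2 were lower at an unadjusted p under 0.05, against 7.35% and 8.22% of all genes. Of its members, the keratin Krt14 had levels of -0.89, -0.70 and -0.01 against 0.38, 1.01, 0.47 and 0.02, and Krt5 of -1.56, -1.59 and -1.02 against -0.54, -0.07, -0.82 and -0.92. Neither passed (limma adjusted p = 0.184 and 0.343), and in neither did the ages overlap. Of the 27 genes 2 were wholly higher at PND 145 and 1 wholly lower, against 4.89% and 5.00% of all genes. Nothing is read from the lack of overlap. In the other direction, Sbsn and Sprr1b, genes of squamous epithelium, had log2 ratios of -1.0 and -2.57 (limma adjusted p = 0.133 and 0.207). Socs2, a brake on prolactin and growth hormone signalling, had levels of -4.54, -5.12 and -4.54 at PND 100 and of -5.50, -5.66, -5.99 and -5.52 at PND 145 (log2 ratio -0.94, SE 0.44, limma adjusted p = 0.302).

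Adipocyte and skeletal muscle genes had medians of 0.19 and 0.75 in EB rats and of -1.71 and -1.60 in controls, without a gene passing. The skeletal muscle mean on single EB arrays ran from -3.79 to -1.57 at PND 100 and from -3.80 to 0.18 at PND 145, so the level of these genes varied between samples of 1 age by more than between the ages.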
